A study of Mus musculus with 12 samples.

Results

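Imprinted genes are expressed from 1 parental copy, and 39 of them were followed here through a knockdown of the splicing factor Srrm2 in mouse embryonic stem cells (ESC). The members were taken by symbol from a list of mouse imprinted genes, which was drawn up with earlier results of these data known, by a rule that uses no measured value. Of the 39, 38 were listed among 42450 genes, and 36 of the 19410 genes that had enough counts to be tested were members. Peg13 was not analysed here, and Usp29 and Nap1l5 were listed but fell below the filter. PolyA RNA was sequenced from 12 libraries of E14tg2a.4 cells, a male ESC line whose columns are all marked WT, kept in serum-free medium with LIF. The siRNA, at 50 nM, was directed at Srrm2 (Srrm2-KD) or at Gl2, a firefly luciferase sequence that mouse cells lack (Gl2-KD), and the cells were harvested at 24 h, or transfected again and harvested at 72 h. Each of the 4 groups (Gl2-KD 24 h, Srrm2-KD 24 h, Gl2-KD 72 h and Srrm2-KD 72 h) held 3 libraries, 1 from each of 3 independent experiments. An experiment is therefore 1 set of 4 libraries, and all libraries come from 1 cell line.

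At an imprinted locus, a control region is methylated in 1 germline, and the mark is carried through embryonic development on that parental copy alone. In many loci the unmethylated copy of the control region drives a long non-coding RNA (H19, Meg3, Kcnq1ot1 and Airn are the best known), and protein-coding neighbours are silent on the chromosome where it is made. Many of the proteins act in growth: Igf2 is a fetal growth factor, Igf2r clears it, Grb10 damps growth factor signalling and Cdkn1c blocks the cell cycle. Imprints are known to drift in cultured ESC, at some loci more than at others. The libraries here do not tell the parental copies apart, so each value below is a total over both, and fewer cells with a transcript cannot be told apart from less transcript per cell.

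The siRNA, time and experiment comparisons rest on estimated counts, scaled to CPM, which sets the count of a gene against the total of its library, with TMM factors that adjust totals for composition. Libraries held 73933196 to 153343831 estimated counts. Srrm2 stood at 911, 496 and 449 CPM in Gl2-KD at 24 h (experiments 1, 2 and 3) and at 517, 154 and 199.8 CPM in Srrm2-KD. At 72 h it stood at 962, 479 and 442 CPM in Gl2-KD and at 460.5, 182 and 217 CPM in Srrm2-KD. The knockdown libraries lay below their controls in each experiment at both times, with 43% and 44.6% of the Srrm2 level left in the fit, at an edgeR adjusted p of 0.0663 and 0.0991. The Gl2-KD level of Srrm2 in experiment 1 was above that in experiments 2 and 3. All 8 stem cell markers looked at were expressed (Pou5f1 at 1149 to 1956 CPM), at a summed 4372 to 6852 CPM. The sums were 1.45 to 2.81 CPM for 6 endoderm markers (Afp at 0 in every library) and 2.05 to 4.56 CPM for 5 mesoderm markers (Kdr up to 2.75 CPM, Mesp1 at most 0.164 CPM). They were 66.0 to 146 CPM for 6 trophoblast markers, most of it Tfap2c and Krt8 with Cdx2 at most 0.209 CPM. For 5 neural markers they were 99.6 to 191 CPM, with Tubb3 at 25.8 to 119 CPM. Nes (12.02 to 49.8 CPM), Neurod1 (9.11 to 35.5 CPM) and Pax6 (6.89 to 34.6 CPM) were also present in every library. Sox1 was low, at 0.211 to 1.62 CPM. The summed level of 6 fibroblast markers, most of it Thy1 (3.58 to 22.9 CPM), ran from 3.89 to 7.71 CPM in experiment 1, 10.1 to 12.1 CPM in experiment 2 and 16.9 to 24.8 CPM in experiment 3, with Col1a1, Col1a2 and Col3a1 at 0 to 1.21 CPM throughout. Markers of the 2-cell-like state, 5 genes of which 3 are Zscan4 copies, summed to 8.21 to 37.6 CPM at 24 h and 3.57 to 4.68 CPM at 72 h in Gl2-KD, and to 10.4 to 37.6 CPM and 6.13 to 12.1 CPM in Srrm2-KD. Their part in the values below was not tested. The 4 libraries of an experiment deviated together from their group means (correlation 0.281 to 0.747 over 18 pairs), so the experiment was a term in every fit.

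Levels were compared between members per kilobase of merged exons (GENCODE M21), as CPM per kb, mean ± SD over 12 libraries. Snrpn, a spliceosome protein gene expressed from the paternal copy, was the highest at 64.2 ± 13.1 CPM per kb. It was followed by Impact, a regulator of translation, at 29.6 ± 3.55, Phlda2, a maternally expressed brake on placental growth, at 28.8 ± 5.44, Mcts2, a retrogene in an intron of H13, at 26.1 ± 5.30, and the long non-coding RNA Meg3 at 24.3 ± 4.07 CPM per kb. Within this run from Impact to Meg3, neighbours in the order differed by less than the larger SD of the pair, as did 29 of all 37 neighbouring pairs, while Snrpn stood above Impact and Meg3 above Peg10 by more than that SD. The order below Snrpn depended on the length used. Per kilobase of the longest transcript it was Snrpn (66.8), Phlda2 (42.6), Impact (40.3), Gnas (33.4), Meg3 (30.2) and Mcts2 (26.1 CPM per kb). At the other end, 6 members (H19, Nnat, Plagl1, Airn, Usp29 and Nap1l5) stayed below 1 CPM in every library, while 17 stood above 10 CPM in every library. Meg3 was the most abundant by library share, at 304 to 524 CPM. Dlk1, its paternally expressed protein-coding neighbour, stood at 0.337 to 1.25 CPM, and Igf2 stood at 0.522 to 8.40 CPM beside H19 at 0.0489 to 0.662 CPM. Igf2r, the maternally expressed receptor, stood at 41.8 to 117 CPM, and Airn, the non-coding RNA across its locus, at 0 to 0.218 CPM.

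**Figure D1:**
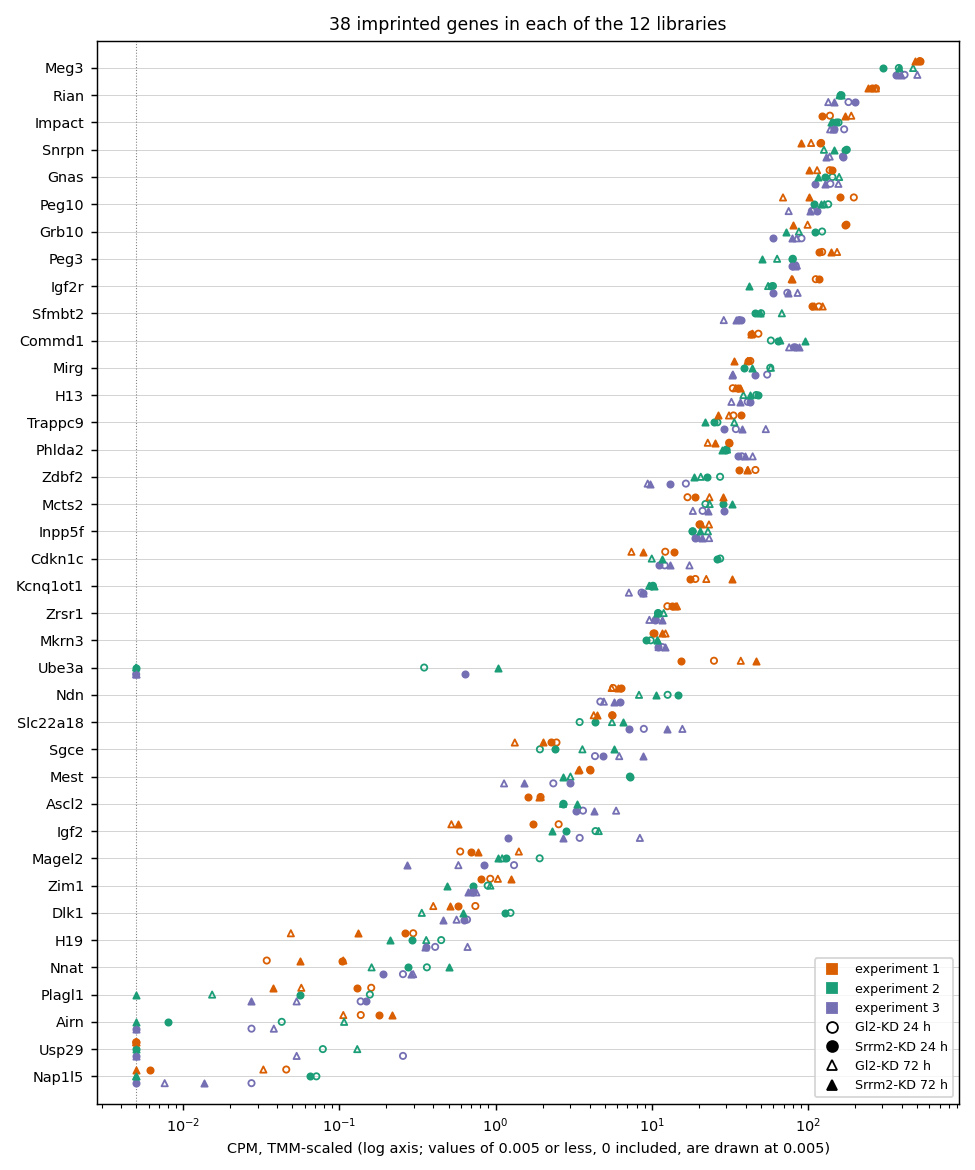
Level of each of the 38 listed members in each of the 12 libraries, as TMM-scaled CPM on a log axis, ordered by mean. Colour marks the experiment and symbol the group. Ube3a stands at 15.4 to 46.8 CPM in experiment 1 and at 0 to 1.04 CPM in the other 8 libraries, while Zdbf2 and Sfmbt2 fall into 3 separate sets by experiment.

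Of the 39 members, 32 had at least 1 RefSeq promoter window (GRCm38.p6, 48 windows of 250 bases before to 50 after a start). The hexamer TGCCGC, which the imprint-protecting zinc finger protein ZFP57 binds when its CpG is methylated, was searched on both strands. It lay in 13 of the 48 windows (27.1%, Wilson interval 16.6% to 41.0%) and in 11.6% of all 32851 windows. The 48 windows come from 32 members and some overlap, such as 2 of Mest that both held the hexamer. The interval takes them as independent, which they are not. These member windows also held more CpG, a median of 15 against 7 over all windows. In the 250 bases before the start alone the shares were 16.7% and 8.68%. The YY1 core GCCATNTT, also searched on both strands, lay in 6.25% of the member windows and 6.05% of all. A match is a match of letters only, and binding was not measured. The 250 bases before the start are shown for Zdbf2 and Mest, whose RNA differed between experiments and which each had a window with more than 1 TGCCGC. They are also shown for Ube3a, which was near 0 in 2 of the 3 experiments. Capitals mark TGCCGC or its reverse complement in Zdbf2 and Mest and the reverse complement of GCCATNTT in Ube3a, 5′ to 3′ on the gene's strand.
Zdbf2, chr1:63200108-63200357, + strand: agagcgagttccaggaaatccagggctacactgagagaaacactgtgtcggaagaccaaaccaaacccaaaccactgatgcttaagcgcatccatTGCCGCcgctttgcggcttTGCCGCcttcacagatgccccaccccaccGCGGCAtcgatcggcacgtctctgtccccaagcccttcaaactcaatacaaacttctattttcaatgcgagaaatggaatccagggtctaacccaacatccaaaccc
Mest, chr6:30737800-30738049, + strand: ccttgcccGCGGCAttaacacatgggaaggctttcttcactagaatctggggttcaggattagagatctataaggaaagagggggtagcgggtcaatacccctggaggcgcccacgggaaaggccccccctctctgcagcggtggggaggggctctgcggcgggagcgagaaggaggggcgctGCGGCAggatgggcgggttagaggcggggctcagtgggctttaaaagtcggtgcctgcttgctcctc
Ube3a, chr7:59228500-59228749, + strand: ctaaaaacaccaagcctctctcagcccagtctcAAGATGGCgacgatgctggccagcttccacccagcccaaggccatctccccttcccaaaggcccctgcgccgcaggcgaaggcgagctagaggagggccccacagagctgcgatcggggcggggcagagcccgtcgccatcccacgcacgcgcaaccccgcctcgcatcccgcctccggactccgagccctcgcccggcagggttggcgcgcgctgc
The Zdbf2 window held 3 hexamers, the most of any member window. It belongs to an upstream RefSeq start of Zdbf2, a gene of the growth hormone axis that only the paternal copy expresses, while the gene body in the annotation used here lies at chr1:63273265-63314576, + strand. The other Zdbf2 window, chr1:63273019-63273318, lies at the start of that gene body and held 0 of the hexamers.

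The siRNA comparison asks whether less Srrm2 changes the level of imprinted genes. At 24 h no member passed an edgeR adjusted p of 0.05 (0 of 36), and neither did any of the 19410 genes (0% called, with 508 at an unadjusted p under 0.05, 25 called by DESeq2 and 2 by limma-voom, no member among either). At 72 h the count was again 0 of 36, beside 0% of all genes (2498 at an unadjusted p under 0.05, 542 called by DESeq2 and 4 by limma-voom, no member among either). The edgeR fit did not call Srrm2 itself, with 43% and 44.6% of its level left. The authors, with RNA processing day as a covariate in edgeR, report Srrm2 as called at both times. A count of 0 in this fit therefore does not show that the members were unchanged. The median log2 fold change of the 36 was -0.06 at 24 h and -0.05 at 72 h, beside 0.0054 and -0.02 over all genes. In size, the 36 had a median absolute log2 fold change of 0.12 at 24 h and 0.22 at 72 h, beside 0.12 and 0.21 over all genes. An unadjusted p under 0.05 was reached by 1 member at 24 h (Zdbf2) and 2 at 72 h (Trappc9 and Meg3). At 24 h 33 of the 36 lay within 0.5 of zero on the log2 scale, and at 72 h 30 did. In the plot of the fold changes, 4 members with low or uneven values (Airn, Igf2, Plagl1 and Ube3a) had an SE above 0.6 at both times.

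**Figure D2:**
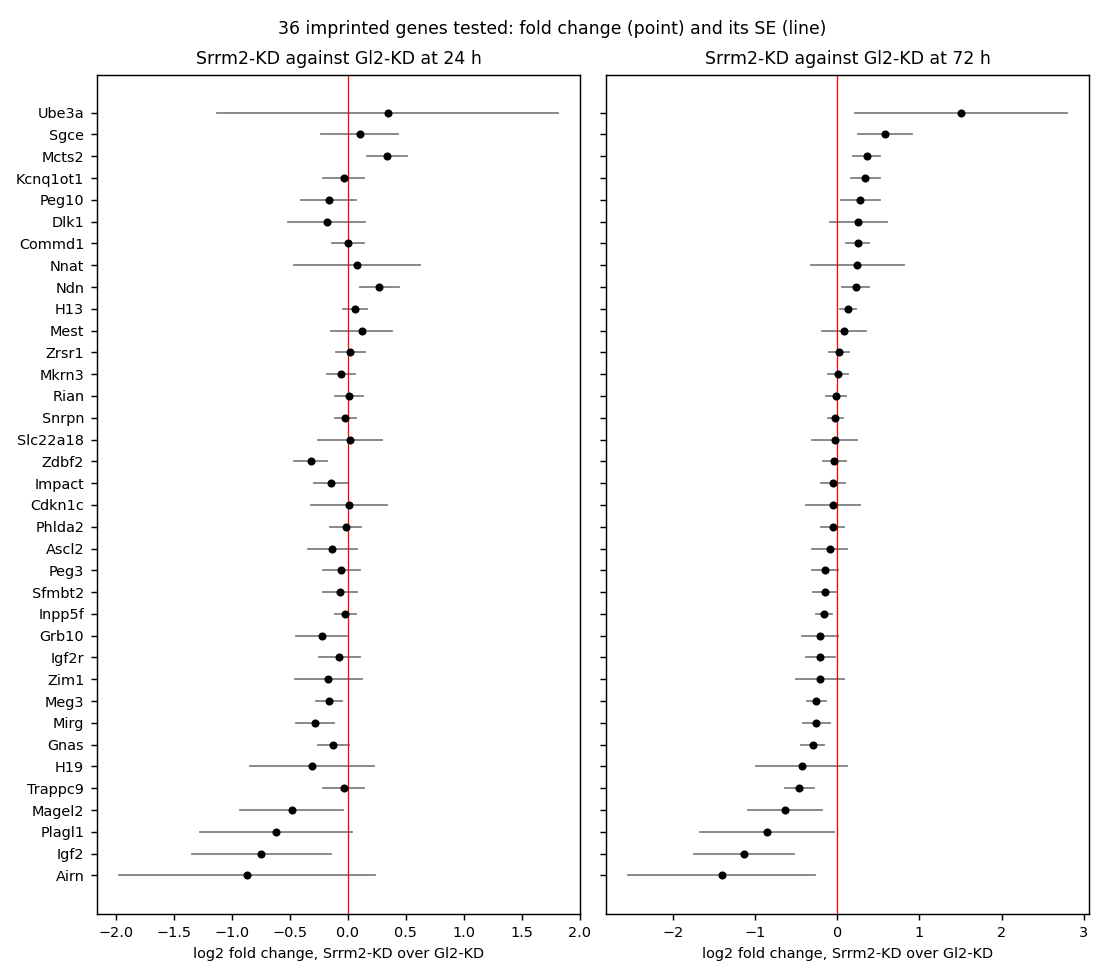
Log2 fold change of Srrm2-KD over Gl2-KD for the 36 tested members in the left panel (24 h) and the right panel (72 h). Points give the fitted value and lines its SE. Most points lie within 0.5 of 0, and Airn, Igf2, Plagl1 and Ube3a have the widest lines in both panels.

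Zdbf2 had the smallest p at 24 h, and was lower in Srrm2-KD in each of the 3 experiments. It stood at 46.2, 27.4 and 16.6 CPM in Gl2-KD and 36.1, 22.7 and 13.1 CPM in Srrm2-KD (experiments 1, 2 and 3). The 2 groups overlapped, with a log2 fold change of -0.32 ± 0.14 (SE) and an adjusted p of 1.00 (edgeR). Mcts2, a translation factor retrogene that sits inside H13 and is read from the paternal copy, was higher in all 3. Its levels were 17, 22.1 and 21.2 CPM in Gl2-KD and 19, 28.4 and 29 CPM in Srrm2-KD at 24 h, and 23.4, 23.5 and 18.4 and 28.5, 32.5 and 22.9 CPM at 72 h. The fold change was 0.34 ± 0.17 at 24 h and 0.36 ± 0.17 at 72 h on the log2 scale, with adjusted p of 1.00 and 0.414 (edgeR). Mirg, the microRNA host at the far end of the Dlk1-Meg3 domain, stood at 42.8, 57.5 and 54.9 CPM in Gl2-KD and 41.3, 38.8 and 45.9 CPM in Srrm2-KD at 24 h. Srrm2-KD was the lower one in each experiment, with a log2 fold change of -0.28 ± 0.17 and an adjusted p of 1.00 (edgeR).

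Trappc9, a trafficking protein gene that hosts the imprinted Peg13, had the smallest p at 72 h. It stood at 31.3, 33.8 and 53.8 CPM in Gl2-KD and 26.6, 22 and 38 CPM in Srrm2-KD, lower in all 3 experiments. The log2 fold change was -0.46 ± 0.18 with an adjusted p of 0.311 (edgeR). Meg3 stood at 518, 472 and 503 CPM in Gl2-KD and 483, 385 and 394 CPM in Srrm2-KD at 72 h, lower in Srrm2-KD in each experiment (log2 fold change -0.25 ± 0.11, adjusted p 0.373, edgeR). Gnas, which encodes the stimulatory G protein alpha subunit, stood at 115, 159 and 157 CPM in Gl2-KD and 102, 117 and 129.7 CPM in Srrm2-KD. It too was lower in all 3, with a log2 fold change of -0.30 ± 0.14 and an adjusted p of 0.391 (edgeR). When each experiment and time point had its own block, which lets the 72 h change differ between experiments, 724 genes were called at 72 h (3.73% of those tested) and 2 of the 36 members were among them. These were Trappc9, with a log2 fold change of -0.45 ± 0.10 with an adjusted p of 0.0438, and Mcts2, with 0.36 ± 0.083 with an adjusted p of 0.0486 (edgeR with the replicate block for experiment and time). Both lie close to the threshold, and the share of members is near the share of all genes.

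At the best-known loci no gene passed the test under Srrm2-KD. Igf2 stood at 0.522, 4.58 and 8.40 CPM in Gl2-KD and 0.573, 2.30 and 2.71 CPM in Srrm2-KD at 72 h, where the fold change of -1.14 ± 0.61 on the log2 scale missed the threshold (adjusted p 0.476, edgeR). H19, at 0.0489, 0.360 and 0.662 and 0.131, 0.211 and 0.355 CPM, gave -0.44 ± 0.55 (adjusted p 0.780, edgeR). Both rest on low values, and in experiment 1 neither was lower in Srrm2-KD at 72 h. At 24 h both were lower in Srrm2-KD in every experiment. The log2 fold changes there were -0.75 ± 0.60 for Igf2 and -0.31 ± 0.54 for H19, and neither was called. Gm49394, a gene model that shares 3596 exon bases with Igf2 on the same strand, was not analysed here. Kcnq1ot1, the paternal non-coding RNA that silences Cdkn1c and its neighbours in cis, stood at 22.4, 9.65 and 7.15 and 32.9, 10.4 and 8.82 CPM at 72 h, with a log2 fold change of 0.34 ± 0.18 (adjusted p 0.456, edgeR). Cdkn1c stood at 7.42, 10.01 and 17.5 and 8.79, 11.7 and 13 CPM, with -0.054 ± 0.33 (adjusted p 0.964, edgeR). By parental copy, 8 of 12 maternally and 13 of 19 paternally expressed members were lower in Srrm2-KD at 24 h, beside 48.7% of all genes. At 72 h 11 of 12 and 9 of 19 were lower, beside 52.1% of all genes, none of them called. Of the maternally expressed members, H19, Ascl2, Cdkn1c, Phlda2 and Slc22a18 lie together on distal chromosome 7. Meg3, Rian and Mirg share the Dlk1-Meg3 domain, so the members counted are not independent. Some of their log2 fold changes at 72 h were small, such as -0.013 for Rian and -0.032 for Slc22a18. The difference of the siRNA effect between 72 h and 24 h was called for 0 of 36 members and 0% of all genes by edgeR, with no member and 319 genes at an unadjusted p under 0.05, 2 genes called by DESeq2 and 0 by limma-voom.

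From 24 h to 72 h, a span that also includes a second transfection, no member passed the edgeR threshold in either siRNA. In Gl2-KD 0 of 36 members were called, beside 1.45% of all genes (282 genes). There 7 members had an unadjusted p under 0.05, beside 16.8% of all genes (3260 genes). In Srrm2-KD 0 of 36 were called, beside 0.551% of all genes (107 genes). Here 3 members had an unadjusted p under 0.05, beside 16.3% of all genes (3156 genes). DESeq2 called 4 members in Gl2-KD (Snrpn, Zdbf2, Mest and Peg10, all lower at 72 h), beside 8.16% of the genes it tested, and 2 in Srrm2-KD (Snrpn and Mest), beside 6.62%. limma-voom called no member in either.

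Snrpn was lower at 72 h in every pair of libraries. In Gl2-KD it stood at 122, 178 and 168 CPM at 24 h and 105, 127 and 138 CPM at 72 h. The log2 change was -0.32 ± 0.091 in Gl2-KD and -0.33 ± 0.091 in Srrm2-KD, with adjusted p of 0.105 and 0.123 by edgeR and 0.0233 and 0.0364 by DESeq2. Mest, an enzyme of the hydrolase family that marks mesoderm and is expressed from the paternal copy, was also lower in all 6 pairs. It stood at 4.03, 7.26 and 2.35 CPM at 24 h and 3.45, 3.02 and 1.13 CPM at 72 h in Gl2-KD, and at 4.05, 7.28 and 2.98 and 3.38, 2.71 and 1.53 CPM in Srrm2-KD. The log2 change was -0.84 ± 0.27 and -0.88 ± 0.27, with adjusted p of 0.144 and 0.150 by edgeR and 0.0257 and 0.0244 by DESeq2. In Gl2-KD, Zdbf2 changed by -0.46 ± 0.14 (DESeq2 adjusted p 0.0369). Peg10, a retrotransposon-derived gene needed in the placenta, changed by -0.67 ± 0.24 (DESeq2 adjusted p 0.0419), and its largest drop was in experiment 1, from 197 to 69.3 CPM. Plagl1 and Dlk1, a transcription factor and a Notch-like membrane protein, were also lower at 72 h in all 6 pairs, at or under 1.25 CPM throughout. Inpp5f, a lipid phosphatase gene with an imprinted short form, was higher in all 6 pairs, at 20.4, 18.3 and 19.4 CPM at 24 h and 23.3, 22.9 and 23.3 CPM at 72 h in Gl2-KD (adjusted p 0.185, edgeR). The share of all genes that moved the same way in all 6 pairs was not computed.

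More members were called between the 3 experiments than between siRNAs or times. In a test over the 3 experiments 22 of the 36 members were called (61.1%), a share near the 58.5% of all genes called. Experiment 1 against the mean of experiments 2 and 3 gave 20 of 36, 11 higher and 9 lower, beside 53.4% of all genes. Experiment 2 against experiment 3 gave 7 of 36, 4 higher and 3 lower, beside 14.2%. This last count was 3 without Srrm2-KD 24 h of experiment 2, and 4 without Gl2-KD 24 h of experiment 2, Gl2-KD 72 h of experiment 3 or Srrm2-KD 72 h of experiment 3. Since the 4 libraries of an experiment are not independent of each other, these p-values measure the spread between libraries and not between cultures. The passage, the day and the reagents of each experiment were not used here, and these cannot be told apart. The count over 3 experiments was 19 of 33 without Ube3a, Snrpn and Airn, whose estimates are taken up below.

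**Figure D3:**
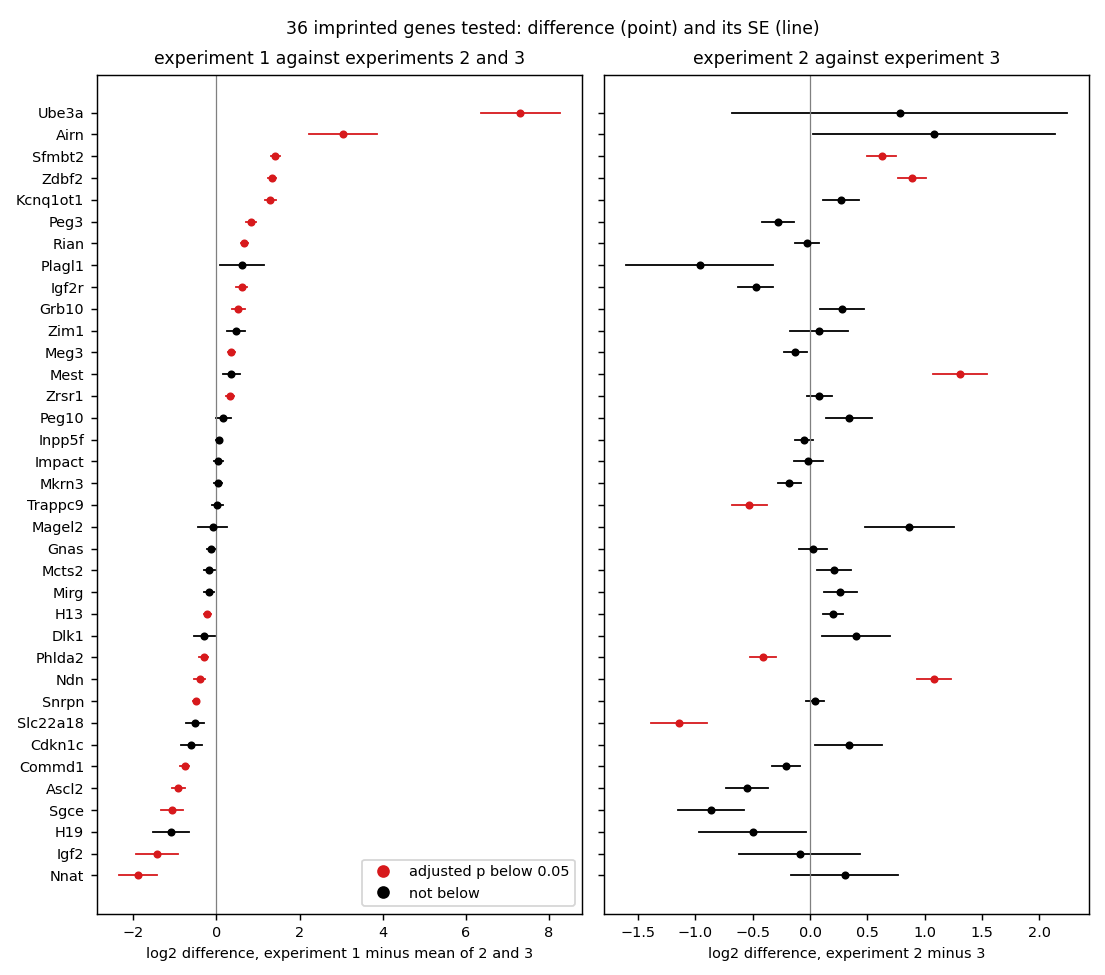
Log2 difference between experiments for the 36 tested members, as experiment 1 minus the mean of experiments 2 and 3 (left) and experiment 2 minus experiment 3 (right). Points give the fitted value, lines its SE and red an adjusted p below 0.05 (edgeR). Ube3a lies far out at 7.32, and Sfmbt2 and Zdbf2 are red on the same side in both panels.

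Zdbf2 fell into 3 steps. It stood at 46.2, 36.1, 41.3 and 40.7 CPM in experiment 1, 27.4, 22.7, 20.6 and 18.7 CPM in experiment 2 and 16.6, 13.1, 9.43 and 9.81 CPM in experiment 3, in the order Gl2-KD 24 h, Srrm2-KD 24 h, Gl2-KD 72 h and Srrm2-KD 72 h, which is kept for the lists below. No 2 experiments overlapped. The log2 difference was 1.34 ± 0.10 between experiment 1 and the others (adjusted p 2.02e-06, edgeR) and 0.89 ± 0.12 between experiments 2 and 3 (adjusted p 0.00392, edgeR). Sfmbt2 (chr2:10370510-10595253, + strand), a Polycomb-group gene read from the paternal copy in early embryos, showed the same order. It stood at 118, 107, 124 and 109.6 CPM in experiment 1, 50.2, 46.1, 68.2 and 49.3 CPM in experiment 2 and 36.4, 37.6, 28.9 and 34.5 CPM in experiment 3. Every library of experiment 1 was above every other one, and every library of experiment 2 above those of experiment 3. The differences were 1.42 ± 0.11 (adjusted p 1.84e-06, edgeR) and 0.62 ± 0.13 (adjusted p 0.0136, edgeR) on the log2 scale. An intron of Sfmbt2 is known for a large microRNA cluster, which polyA libraries of this kind do not measure.

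On distal chromosome 7, Kcnq1ot1 (chr7:143203458-143296549, - strand) was higher in experiment 1 than in the other two. It stood at 19, 17.5, 22.4 and 32.9 CPM in experiment 1, 10.2, 9.97, 9.65 and 10.4 CPM in experiment 2 and 8.62, 8.82, 7.15 and 8.82 CPM in experiment 3. The difference of experiment 1 was 1.30 ± 0.13 on the log2 scale (adjusted p 1.17e-05, edgeR), and experiments 2 and 3 differed by 0.27 ± 0.15 (adjusted p 0.257, edgeR). For 4 protein-coding genes of the same domain the difference had the other sign. The longest annotated transcript is 93092 bases for Kcnq1ot1 and 757 to 1901 bases for these 4 genes. Whether transcript length has a part in the differences between experiments was not tested. Ascl2, a trophoblast transcription factor, stood at 1.94, 1.61, 1.95 and 1.89 CPM in experiment 1, 2.72, 2.72, 2.70 and 3.31 CPM in experiment 2 and 3.63, 3.29, 5.92 and 4.27 CPM in experiment 3. Experiment 1 was below all others (log2 difference -0.91 ± 0.16, adjusted p 7.36e-04, edgeR). Phlda2 was lower in experiment 1 (log2 difference -0.31 ± 0.10, adjusted p 0.0260, edgeR) and lower in experiment 2 than in experiment 3 (-0.41 ± 0.12, adjusted p 0.0413, edgeR). Slc22a18, a transporter gene beside it, was lower in experiment 2 than in experiment 3 (-1.14 ± 0.24, adjusted p 0.0151, edgeR), and the difference of experiment 1, -0.51 ± 0.21, missed the threshold (adjusted p 0.0651, edgeR). Cdkn1c, at 12.2, 13.9, 7.42 and 8.79 CPM in experiment 1, 27.5, 26.1, 10.01 and 11.7 CPM in experiment 2 and 12.1, 11.2, 17.5 and 13 CPM in experiment 3, missed it too (-0.61 ± 0.25, adjusted p 0.0621, edgeR). The call of Phlda2 in experiment 1 was lost without Gl2-KD 72 h (adjusted p 0.109) or Srrm2-KD 72 h (0.0693) of that experiment. Its call between experiments 2 and 3 was lost without any 1 of 7 of their libraries (0.0654 to 0.141, all but Srrm2-KD 24 h of experiment 3). That of Slc22a18 was lost without Gl2-KD 24 h or Srrm2-KD 24 h of experiment 2, or Gl2-KD 72 h or Srrm2-KD 72 h of experiment 3 (0.0523 to 0.0680). The summed fibroblast markers and Thy1 were also lowest in experiment 1 and highest in experiment 3, and their part in these differences was not tested.

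At the Igf2-H19 locus, on the same chromosome, both genes had their lowest values in experiment 1. Igf2 stood at 2.54, 1.73, 0.522 and 0.573 CPM in experiment 1, 4.37, 2.82, 4.58 and 2.30 CPM in experiment 2 and 3.46, 1.21, 8.40 and 2.71 CPM in experiment 3. Its difference of -1.42 ± 0.50 was called (adjusted p 0.0329, edgeR) but the 24 h libraries of experiment 1 lay within the range of the others. The call was lost without any 1 of 6 libraries (adjusted p 0.0502 to 0.113), which were the 72 h libraries of experiment 1, Srrm2-KD 72 h of experiments 2 and 3, and the 24 h libraries of experiment 2. H19 stood at 0.297, 0.265, 0.0489 and 0.131 CPM in experiment 1, 0.449, 0.290, 0.360 and 0.211 CPM in experiment 2 and 0.411, 0.360, 0.662 and 0.355 CPM in experiment 3, and its difference of -1.09 ± 0.43 missed the threshold (adjusted p 0.0529, edgeR). All 7 tested genes of distal chromosome 7 had an unadjusted p under 0.05 in this comparison, and 4 were called (57.1%), 1 higher and 3 lower, beside 58.7% of all genes under that p and 53.4% called.

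In the Dlk1-Meg3 domain 2 of the 3 non-coding RNAs made from the maternal copy were higher in experiment 1. Rian (chr12:109603940-109661716, + strand), a host of small nucleolar RNAs, stood at 273, 256, 273 and 241 CPM in experiment 1, 164, 161, 159.8 and 164 CPM in experiment 2 and 182, 200.2, 135 and 147 CPM in experiment 3. Experiment 1 lay above all other libraries, by 0.67 ± 0.088 on the log2 scale (adjusted p 7.95e-05, edgeR), and experiments 2 and 3 differed by -0.023 ± 0.10 (adjusted p 0.906, edgeR). Meg3, which starts the same transcription unit, stood at 521, 524, 518 and 483 CPM in experiment 1, 382, 304, 472 and 385 CPM in experiment 2 and 416, 367, 503 and 394 CPM in experiment 3. Its difference was smaller, 0.36 ± 0.083 (adjusted p 0.00339, edgeR), and the libraries overlapped. Mirg, at 42.8, 41.3, 41.2 and 33.7 CPM in experiment 1, 57.5, 38.8, 58 and 43.8 CPM in experiment 2 and 54.9, 45.9, 33.1 and 32.6 CPM in experiment 3, differed by -0.18 ± 0.13 (adjusted p 0.247, edgeR), and Dlk1, at 0.743, 0.579, 0.399 and 0.511 CPM in experiment 1, 1.25, 1.14, 0.337 and 0.620 CPM in experiment 2 and 0.657, 0.624, 0.563 and 0.464 CPM in experiment 3, by -0.29 ± 0.26 (adjusted p 0.355, edgeR). Some ESC lines are known to have lost these RNAs from both copies. Here Meg3, Rian and Mirg stood at 304, 135 and 32.6 CPM or more in every library.

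In the other loci, Peg3 (chr7:6703892-6730431, - strand), a zinc finger gene of maternal behaviour and growth, stood at 123.5, 117, 154 and 142 CPM in experiment 1, 80.1, 79.1, 63.6 and 50.6 CPM in experiment 2 and 83.5, 78.7, 85 and 82.5 CPM in experiment 3. Experiment 1 lay above the others without overlap, by 0.84 ± 0.12 (adjusted p 1.28e-04, edgeR). Zim1, its neighbour, stood at 0.488 to 1.26 CPM and differed by 0.46 ± 0.22 (adjusted p 0.0909, edgeR). Usp29, the third gene of that locus, was listed at 0 to 0.256 CPM. Igf2r stood at 112, 117, 78.8 and 78.8 CPM in experiment 1, 59.8, 58.1, 55.7 and 41.8 CPM in experiment 2 and 73.9, 60.1, 86 and 75.1 CPM in experiment 3, higher in experiment 1 by 0.61 ± 0.13 (adjusted p 0.00215, edgeR), with overlap at 72 h. Airn differed by 3.05 ± 0.81 (adjusted p 0.00820, edgeR) on 12 to 35.4 estimated counts a library in experiment 1 and 0 to 14.3 in the others. Mest stood at 4.03, 4.05, 3.45 and 3.38 CPM in experiment 1, 7.26, 7.28, 3.02 and 2.71 CPM in experiment 2 and 2.35, 2.98, 1.13 and 1.53 CPM in experiment 3. It was higher in experiment 2 than in experiment 3 by 1.31 ± 0.24 (adjusted p 0.00884, edgeR), and the libraries of both overlapped only where 72 h of experiment 2 met 24 h of experiment 3. Without Srrm2-KD 24 h of experiment 2 the adjusted p of Mest was 0.0508. Ndn, a growth-suppressor gene of the Snrpn-Ube3a domain, stood out in experiment 2. It stood at 5.67, 6.40, 5.54 and 6.07 CPM in experiment 1, 12.7, 14.8, 8.30 and 10.6 CPM in experiment 2 and 4.69, 6.30, 4.94 and 5.71 CPM in experiment 3. All libraries of experiment 2 were above all of the others (log2 difference 1.08 ± 0.15 against experiment 3, adjusted p 0.00360, edgeR). Magel2 and Mkrn3, neighbours of Ndn, were not called in either comparison, with 0.87 ± 0.39 and -0.18 ± 0.10 between experiments 2 and 3 (adjusted p 0.155 and 0.270, edgeR).

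Commd1, a copper and protein-sorting gene whose intron holds the imprinted Zrsr1, was low in experiment 1. It stood at 48.2, 43.3, 44.3 and 43.2 CPM in experiment 1, 58, 64.5, 66.6 and 96.6 CPM in experiment 2 and 81.6, 82.7, 75.9 and 87.1 CPM in experiment 3. Experiment 1 was below all others (log2 difference -0.76 ± 0.11, adjusted p 1.52e-04, edgeR). Zrsr1, a splicing factor retrogene, was higher there, at 12.6 to 14.5 CPM against 9.67 to 11.9 CPM (0.33 ± 0.091, adjusted p 0.0101, edgeR). The 2 genes share 412 exon bases on opposite strands, and no source used here gives the strand setting of the counting. Summing Commd1 with Gm28048, which shares 294 exon bases with it on the same strand, left a difference of -0.78 ± 0.11 (adjusted p 1.17e-04, edgeR). Sgce and Nnat were lower in experiment 1 (-1.07 ± 0.27 and -1.88 ± 0.46, adjusted p 0.00566 and 0.00503, edgeR), Grb10 higher (0.53 ± 0.16, adjusted p 0.0182) and H13 lower (-0.22 ± 0.078, adjusted p 0.0340). Grb10 lost its call without Gl2-KD 24 h (adjusted p 0.0821) or Srrm2-KD 24 h (0.110) of experiment 1, and Zrsr1 without Gl2-KD 72 h of experiment 1 (0.0545). H13 lost it without any 1 of the 6 libraries of 24 h (0.0521 to 0.142). Trappc9 was lower in experiment 2 than in experiment 3 (-0.53 ± 0.15, adjusted p 0.0423, edgeR), a call lost without Gl2-KD 24 h of experiment 1 or any 1 of the libraries of experiments 2 and 3 other than Srrm2-KD 24 h of experiment 3 (0.0537 to 0.147). Peg10, Impact, Inpp5f, Gnas, Mcts2, Mkrn3, Magel2, Mirg, Dlk1, Zim1 and Plagl1 were called in none of the 3 comparisons of level between experiments.

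**Figure D4:**
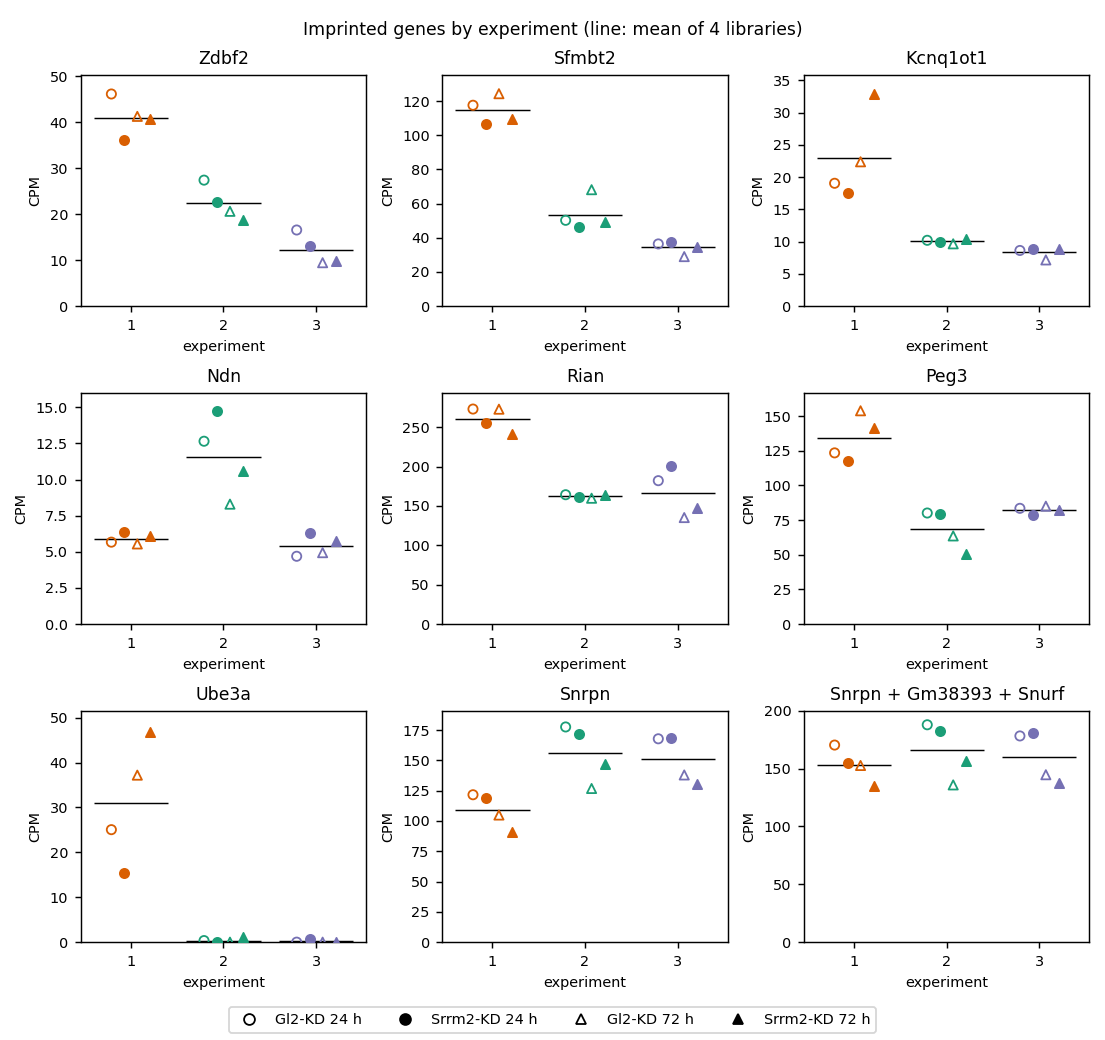
CPM of 8 members in each library by experiment, with the sum of Snrpn, Gm38393 and Snurf in the last panel. Points are libraries, symbols groups and lines the mean of the 4 libraries. Zdbf2 and Sfmbt2 step down from experiment 1 to 3, Ndn is high in experiment 2, Ube3a is near 0 outside experiment 1, and the step of Snrpn is not seen in the sum.

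Ube3a and Snrpn, of the Snrpn-Ube3a domain, share exon bases with other gene models. Ube3a, a ubiquitin ligase gene that neurons express from the maternal copy and most other cells from both, stood at 25.1, 15.4, 37.2 and 46.8 CPM in experiment 1, 0.349, 0, 0 and 1.04 CPM in experiment 2 and 0, 0.635, 0 and 0 CPM in experiment 3. In estimated counts that is 2193 to 7512 in experiment 1 and 0 to 78.9 in the other 8 libraries, of which 5 were below 1. The fitted difference of 7.32 ± 0.95 (adjusted p 7.76e-05, edgeR) depends on how zeros are handled and is no measure of size. Ube3a was 1 of 18 genes of the table, 5 of them annotated as pseudogenes, that stood at 5 CPM or more in every library of experiment 1 and below 2 CPM in every other one, and 3 genes had the reverse pattern. Snhg14, the antisense RNA that shares 1803 exon bases with Ube3a, stood at 67.2 to 82.3 CPM in experiment 1 and 46.7 to 91 CPM in the others, with overlap. Whether reads of Ube3a were assigned to another gene or transcript in experiments 2 and 3 was not tested.

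Snrpn stood at 122, 119, 105 and 90.6 CPM in experiment 1, 178, 172, 127 and 147 CPM in experiment 2 and 168, 169, 138 and 130.3 CPM in experiment 3. Experiment 1 lay below the others (log2 difference -0.49 ± 0.070, adjusted p 1.39e-04, edgeR). Gm38393, a gene model that shares 589 exon bases with Snrpn on the same strand, went the other way, at 29 to 41.2 CPM in experiment 1 and 1.57 to 4.54 CPM in experiments 2 and 3. Snurf, the short upstream reading frame of the same transcript, shares 216 bases and stood at 4.92 to 7.69 CPM and 4.2 to 7.91 CPM. With the 3 summed, the difference of experiment 1 was -0.085 ± 0.072 (adjusted p 0.344, edgeR) and the sum ran from 135 to 170.4 CPM in experiment 1 and from 136 to 188 CPM in the others. The change from 24 h to 72 h kept its size in the sum, at -0.30 ± 0.10 in Gl2-KD and -0.27 ± 0.10 in Srrm2-KD.

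The change from 24 h to 72 h itself differed between experiments for 12 of the 36 members (33.3%), beside 10.2% of all genes (1979 of 19410), in a comparison added after the data were seen. DESeq2 called 19 members in it, beside 31.9% of the genes it gave an adjusted p. The 12 called by edgeR were Cdkn1c, Sgce, Peg3, Grb10, Impact, Igf2, Mcts2, Peg10, Igf2r, Zdbf2, Slc22a18 and Trappc9. For 7 of the 12, the libraries of both siRNAs changed in the same direction within each experiment. The test that picked the 12 sets the change against the spread between the siRNAs within an experiment. Such agreement, here and in the directions given below, is therefore favoured by the choice and is no support for the calls. Its share over all genes was not computed. The Srrm2-KD and Gl2-KD libraries of 1 experiment are not independent of each other. The count depended on single libraries: it fell to 0 without Gl2-KD 24 h of experiment 2 or Srrm2-KD 24 h of experiment 3, to 2 without Srrm2-KD 24 h of experiment 1, to 3 without Srrm2-KD 24 h of experiment 2, to 4 without Gl2-KD 72 h of experiment 1 and to 7 without Srrm2-KD 72 h of experiment 1, in fits with 4 residual degrees of freedom before any was left out.

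In 6 members (Igf2, Sgce, Cdkn1c, Slc22a18, Igf2r and Trappc9) the level was lower at 72 h in experiment 1 and higher at 72 h in experiment 3, under both siRNAs. Igf2 went from 2.54 to 0.522 CPM in Gl2-KD of experiment 1, and from 3.46 to 8.40 CPM in Gl2-KD of experiment 3. On the scale of log2(CPM + 0.1), 72 h minus 24 h, its change was -2.08 and -1.44 in experiment 1 (Gl2-KD and Srrm2-KD), 0.067 and -0.28 in experiment 2 and 1.26 and 1.11 in experiment 3 (adjusted p 0.0220, edgeR). H19 gave -1.42 and -0.66, -0.25 and -0.33 and 0.58 and -0.016 on the same scale and was not called (adjusted p 0.239, edgeR). Cdkn1c had its widest step in experiment 2, from 27.5 to 10.01 CPM in Gl2-KD and from 26.1 to 11.7 CPM in Srrm2-KD, and its changes were -0.71 and -0.66, -1.45 and -1.16 and 0.52 and 0.21 (adjusted p 0.0120, edgeR). Slc22a18, which lies beside it, changed by -0.39 and -0.33, 0.67 and 0.57 and 0.81 and 0.81 (adjusted p 0.0430, edgeR). The 2 genes had the same sign in experiments 1 and 3 and opposite signs in experiment 2. Impact and Mcts2 had the opposite pattern to the 6, higher at 72 h in experiment 1 and lower in experiment 3, with 0.45 and 0.49 and -0.30 and -0.023 for Impact and 0.46 and 0.59 and -0.21 and -0.34 for Mcts2.

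**Figure D5:**
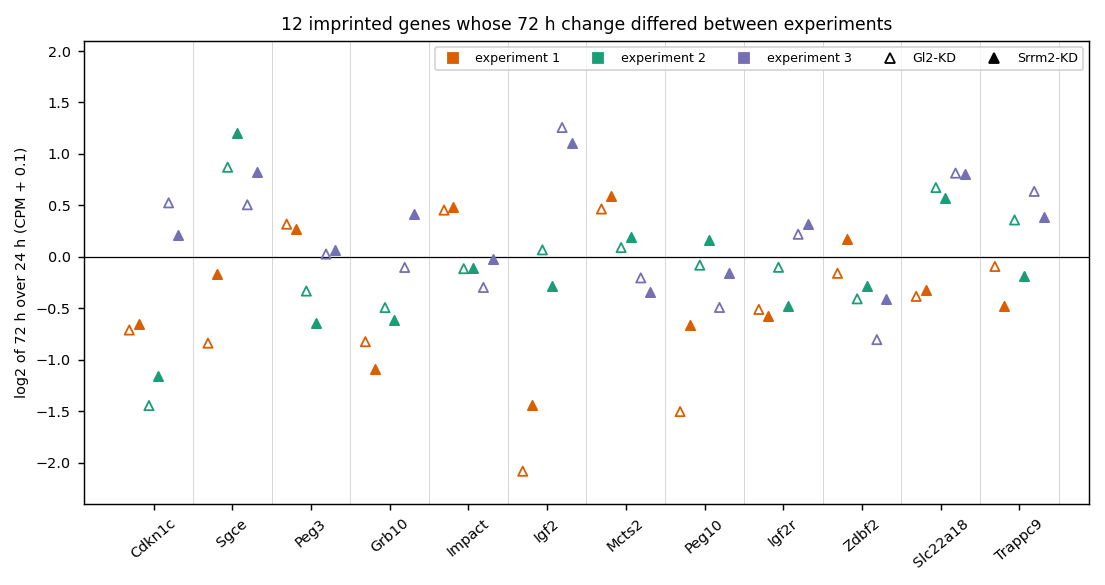
Change from 24 h to 72 h, as log2 of CPM + 0.1, of the 12 members called in the comparison of that change between experiments. Each triangle is 1 pair of libraries, open for Gl2-KD and filled for Srrm2-KD, coloured by experiment. Igf2 lies below -1.4 in experiment 1 and above 1.1 in experiment 3.

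Genes that keep or erase imprints also differed between experiments. Of 22 such genes 21 were tested, and none was called under Srrm2-KD at 24 h or 72 h by edgeR, beside 0% of all genes. An unadjusted p under 0.05 was reached by 1 at 24 h and 6 at 72 h, beside 2.62% and 12.9% of all genes. The largest of these at 72 h was Dnmt3a, a de novo DNA methyltransferase, at 0.84 ± 0.19 on the log2 scale (adjusted p 0.144, edgeR). Between times, 1 of the 21 was called in Gl2-KD (4.76%, beside 1.45% of all genes) and 0 in Srrm2-KD. It was Dnmt3l, lower at 72 h (log2 change -1.09 ± 0.18, adjusted p 0.0245, edgeR). Dnmt3l was also the only 1 called for the 72 h change between experiments (adjusted p 0.0459, edgeR), 4.76% beside 10.2% of all genes. In experiment 1 against the others 16 of 21 were called, 13 higher and 3 lower, beside 53.4% of all genes. Tet1, which oxidises methylated cytosine, had a mean of 1257 CPM in experiment 1, 332 in experiment 2 and 319 CPM in experiment 3 (1.94 ± 0.10, adjusted p 2.61e-07, edgeR). Dppa3, which shields methylation in the early embryo, had 9.11, 56.8 and 51.9 CPM (-2.55 ± 0.11, adjusted p 1.09e-07, edgeR). Zfp57, whose hexamer was searched above, had 528, 469 and 346 CPM, higher in experiment 1 by 0.40 ± 0.069 (adjusted p 5.23e-04) and higher in experiment 2 than in experiment 3 by 0.44 ± 0.081 (adjusted p 0.00977, edgeR). Dnmt1, the maintenance methyltransferase, was higher in experiment 1 by 0.51 ± 0.079 (adjusted p 2.48e-04, edgeR). Zfp445, a further imprint-binding zinc finger gene, was listed at 0 in all 12 libraries. Whether these genes have a part in the members' differences was not tested.

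Of 42 other imprinted genes and neighbours of imprinted loci, 33 were tested. None was called under Srrm2-KD by edgeR at either time, beside 0% of all genes. An unadjusted p under 0.05 was reached by 1 at 24 h and 6 at 72 h, beside 2.62% and 12.9% of all genes. In experiment 1 against the others 14 were called (42.4%, 9 higher and 5 lower, beside 53.4% of all genes). The comparison of the 72 h change between experiments gave 5 (15.2%, beside 10.2%). Ppp1r9a, a neighbour of Peg10 and Sgce, was among those 5 (adjusted p 0.00712, edgeR), with 41.3, 16.5 and 22.8 CPM on average in experiments 1, 2 and 3. Ddc, beside Grb10, was the only one of the 33 called between times by edgeR, lower at 72 h in Gl2-KD (log2 change -0.94 ± 0.19, adjusted p 0.0400, edgeR). Copg2, which runs against Mest and shares 912 exon bases with it on the opposite strand, was lower in experiment 2 than in experiment 3 (log2 difference -0.39 ± 0.12, adjusted p 0.0482, edgeR), where Mest was higher.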

How the data were processed

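PolyA RNA-seq of 12 libraries from 3 independent experiments was used. The authors deposited 1 table of estimated counts per gene. The submitters' processing notes name Kallisto 0.46.1 and the mm10 build. The strand setting and the RNA processing day of each library are not given in the sources used here. Between 33.9% and 43.1% of the values of a library were not whole, and counts were rounded. Library totals ran from 73933196 to 153343831. Of 42450 gene identifiers, 42156 matched the annotation, and the other 294 held 0.175% of the counts.

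Genes were filtered with filterByExpr (10 counts, total of 15), scaled with TMM and fitted with the quasi-likelihood test of edgeR 4.0.16 (R 4.3.3), with a term for the group and 1 for the experiment, and 6 residual degrees of freedom. The common biological coefficient of variation was 0.220. P-values were adjusted over 19410 genes (Benjamini-Hochberg) and called below 0.05. Libraries of the same experiment deviated together (18 pairs, correlation 0.281 to 0.747, against -0.628 to 0.231 for 36 pairs of different experiments), so the replicate numbers of the labels pair the samples. The authors describe the replicates as independent.

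The 39 members and all lists (locus, parental copy, imprint maintenance, neighbours) were chosen with earlier results of these data known. Full values were given for Srrm2, for members called between siRNAs or times, for the 10 members with the smallest p over the 3 experiments and their loci, for the 3 with the smallest p between siRNAs at each time, and for the best-known gene pairs. The comparison of the 72 h change between experiments was added after the data were seen, with 1 block per experiment at each time and 4 residual degrees of freedom. Alternatives were DESeq2 1.42.0, limma 3.58.1 (voom), other scalings, filters and blocks, and leaving out libraries. The fit was tested on simulated data. Promoters were taken from RefSeq (GRCm38.p6) and gene positions from GENCODE (mm10).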

Additional observations from a re-analysis of the deposited data

Results flagged for a closer look

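For 12 imprinted genes the change from 24 h to 72 h differed between the 3 experiments, tested as an interaction of experiment and time (edgeR, adjusted over all genes). The adjusted p was 0.0120 for Cdkn1c, 0.0156 for Sgce, 0.0168 for Peg3, 0.0184 for Grb10, 0.0205 for Impact and 0.0220 for Igf2. It was 0.0239 for Mcts2, 0.0275 for Peg10, 0.0355 for Igf2r, 0.0369 for Zdbf2, 0.0430 for Slc22a18 and 0.0433 for Trappc9. This comparison was added after the data were seen, and 10.2% of all genes were called in it. No cause was tested.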

How the results depend on the processing

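The count of members called was 0 in both siRNA comparisons and in the difference of the siRNA effect between times under every alternative run, with 1 exception. With a replicate block for each experiment and time point, 2 members were called at 72 h. Without the replicate block for the experiment the count was 0. DESeq2 called 4 members between times in Gl2-KD, 2 in Srrm2-KD and 19 for the 72 h change between experiments, where it called 31.9% of all genes. With 1 library left out at a time, 0 to 0 members were called in each siRNA and time comparison, 19 to 24 between the 3 experiments, 17 to 23 for experiment 1 against the others, 3 to 9 for experiment 2 against 3, and 0 to 14 for the 72 h change between experiments. In addition, 53 fold changes of members were recomputed 1255 times in all. They were those with an unadjusted p under 0.05 in the main fit, or among the 4 smallest p of a siRNA comparison. As they were picked by p and refitted on the same libraries or most of them, a kept sign or call is no independent support. Of the 1255 recomputed values, 1166 stayed on the same side of the threshold, 49 lost the call, 40 gained it and 0 changed sign. With library totals as the only scaling, experiment 1 against the others was no longer called for Ndn (adjusted p 0.0782), Phlda2 (0.153) and H13 (0.240). With no filter the same 3 calls were lost (0.0585, 0.0598 and 0.146, edgeR). H13 also lost its call with RLE scaling factors (0.0508) and with 10 counts required in every library (0.0564, edgeR). Igf2 lost it with the robust setting of edgeR (0.0583).

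All p-values measure the spread between libraries of 1 cell line in 3 experiments. Low members (Airn, Plagl1, H19 and Dlk1 among them) have wide intervals. Parental copies and DNA methylation were not measured here. The causes of the differences between settings were not tested.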
